A study of Drosophila melanogaster with 4 samples.

Results

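Nucleoporins are the proteins of the nuclear pore complex, and 27 of the 17438 Drosophila genes and joint loci in the footprint tables encode a nucleoporin or a close partner by the rule used here. The rule took each gene whose symbol is Nup followed by a number, plus Sec13, Gle1, Ndc1, Elys, Nxt1 and Megator, the fly Tpr, which the gene table lists as Mgtor. All 27 had footprints in every library, with counts between 48 and 3561, and all 27 passed the filter on low counts, so none had to be left out.

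Footprints of ribosomes were counted in ovaries of wildtype females (2 libraries) and of females labelled RpS5b mutant (2 libraries), and the labels name no allele and no driver. RpS5b encodes an ovary-rich copy of a protein of the small ribosomal subunit. Per the labels' protocols, flies of both genotypes were kept at 25 °C, their ovaries were taken 48 hours after adult emergence, and only the control ovaries had egg chambers of stages 10 to 14 removed. A footprint count reflects both the amount of an mRNA and its occupancy by ribosomes, and no matched RNA values were used here, so these cannot be told apart.

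The nuclear pore complex is the channel through which RNA and protein cross the nuclear envelope. Its scaffold is made of an outer ring on each face of the envelope, built from the Y complex, and of an inner ring in the plane of the membrane. Nucleoporins rich in phenylalanine-glycine repeats fill the central channel, filaments reach into the cytoplasm, and a basket hangs into the nucleus. In the fly ovary the nurse cells load the oocyte with pore components, many of them stored in annulate lamellae, stacks of membrane that hold pores outside the nucleus, and these stores serve the rapid nuclear divisions of the early embryo.

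Library totals lay between 3122299 and 13942184 reads, and protein-coding genes held between 1053482 and 4599900 counts, with the mutant libraries deeper than the wildtype ones. Reads in tRNA took 54.8% to 64.0% of the counts. RpS5b itself held 287 and 342 counts in wildtype ovaries but only 10 and 9 in those labelled mutant, which goes with the labels. Separate animals are not named in the labels for replicate libraries. Each p-value therefore reflects spread between libraries, in part shared across genes, and not a known spread between animals.

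Footprints of the nuclear pore were lower in the mutant ovaries. Together the 27 genes took 0.687% and 0.659% of the protein-coding counts in the wildtype libraries, against 0.369% and 0.389% in the mutant libraries. Both mutant libraries lay below both wildtype libraries, and without Nup358, the member with the most counts, the shares were 0.539% and 0.509% against 0.292% and 0.301%. In edgeR's quasi-likelihood test, with p-values adjusted over all genes and a gene called at an adjusted p under 0.05, 21 of the 27 fell, 0 rose and 6 did not pass. Over all 7785 genes tested, 20.9% were lower and 20.4% higher by the same rule. No member rose at an unadjusted p under 0.05 either, and DESeq2 called 0 higher and 19 lower, without Nup43 and Nup44A. Over all genes, DESeq2 called 14.6% lower and 10.8% higher.

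The members' median log2 fold change, mutant over wildtype, was -0.87, where the median of all genes tested was 0.031 and 14.5% of genes lay below -0.87. The log2 fold change was below 0 for 25 of 27 members, where 48.4% of all genes were below 0. The scaled counts of the 2 groups did not overlap for any of the 27, with the wildtype higher for 25, where 71.8% of all genes did not overlap and 34.3% did so with the wildtype higher. At least a halving was called for 6 members, and for 11.2% of all genes. These medians and counts describe the list and are not a test of it. In bulk ovaries, fewer cells of a type and fewer footprints per cell cannot be told apart, nor can genotype and the removal of late egg chambers, which the labels give for the control alone.

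The calls are given here by place in the pore, to be read beside the 20.9% of all genes tested that were lower. All 10 outer ring genes and all 6 inner ring genes fell, as did all 3 of the cytoplasmic face and the membrane anchor Ndc1. Of the 3 central channel genes 1 fell, and none of the 3 basket genes passed. Within a place the values spread widely, from -1.15 to -0.49 in the outer ring and from -1.29 to -0.64 on the cytoplasmic face, and differences between places were not tested.

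**Figure D1:**
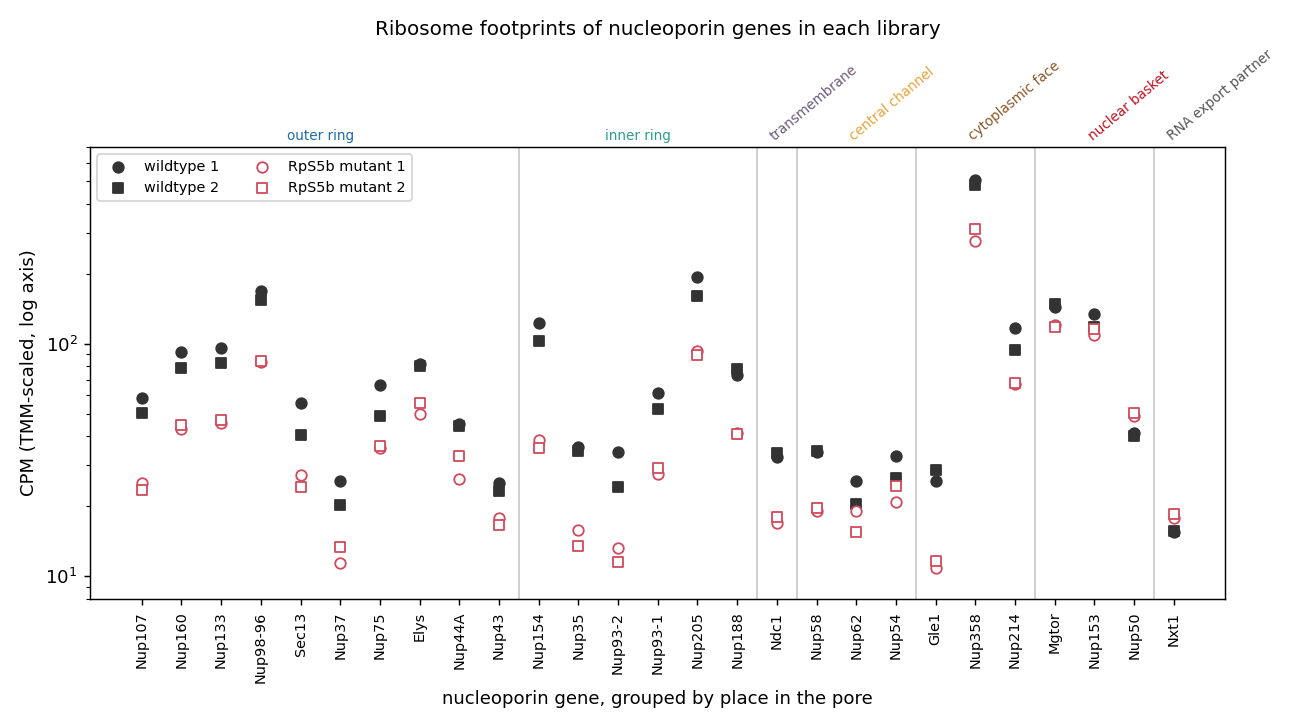
CPM, the counts scaled by TMM, of each nucleoporin gene on a log axis, with filled black points for the wildtype libraries and open red points for the RpS5b mutant libraries. Genes are grouped by their place in the pore. The mutant points lie below the wildtype points for 25 of the 27 genes, and above them for Nup50 and Nxt1.

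The outer ring is built from Y-shaped complexes that stack into the cytoplasmic and nuclear rings. Its 10 genes had a median log2 fold change of -0.87, and their summed level was 715 and 623 CPM (read counts scaled to a common library size by TMM) in the wildtype against 365 and 378 CPM in the mutant libraries. Nup107, a stem protein of the Y, whose counted transcript lies on the minus strand of chromosome 2L at 10733293 to 10736071 of build BDGP6, had 58.6 and 50.2 CPM in the wildtype and 25.1 and 23.5 CPM in the mutant. Both mutant libraries lay far below both wildtype libraries. At -1.15 (log2 fold change, SE 0.14, edgeR adjusted p = 0.000839), this was the largest fall among the 10 outer ring genes.

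Nup133, Nup160 and Nup98-96 fell by nearly the same amount. Nup133, which ends the stem of the Y and touches the membrane, had 95.5 and 82.5 CPM in the wildtype and 45.6 and 46.8 CPM in the mutant, a log2 fold change of -0.94 (SE 0.14, adjusted p = 0.00181). Nup160, which forms an arm of the Y, had 92.3 and 78.8 against 42.9 and 44.7 CPM, a log2 fold change of -0.96 (SE 0.14, adjusted p = 0.00174). Nup98-96, a gene on chromosome 3R at 23774225 to 23781621 whose protein is cut into the channel protein Nup98 and the scaffold protein Nup96, had 169 and 153 against 83.4 and 84.4 CPM. Its log2 fold change was -0.94 (SE 0.14, adjusted p = 0.00195), and the footprints of its 2 products were not counted separately. In each of these 3 genes the mutant libraries were within a few CPM of each other and far below both wildtype libraries.

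Sec13 and Nup44A also work outside the pore. Sec13 is a coat protein of vesicles that leave the endoplasmic reticulum, and both proteins belong to GATOR2, a complex that acts on the growth kinase TORC1. The level of Sec13 was 55.4 and 40.6 CPM in the wildtype and 27.4 and 24.1 CPM in the mutant, a log2 fold change of -0.88 (SE 0.18, adjusted p = 0.00643). Nup44A, the fly Seh1, which is needed in the ovary to keep the oocyte fate, had 45.02 and 44.1 against 26.2 and 32.8 CPM, a log2 fold change of -0.60 (SE 0.15, adjusted p = 0.0175). The mutant libraries were further apart for Nup44A than for Sec13, and the wildtype libraries the reverse. The call of Nup44A was lost without mutant replicate 1 (log2 fold change -0.46, adjusted p = 0.0889) and without wildtype replicate 1 (-0.59, adjusted p = 0.0508) or wildtype replicate 2 (-0.63, adjusted p = 0.0542). It was also lost by DESeq2 (-0.63, adjusted p = 0.0667) and after thinning (-0.44, adjusted p = 0.119).

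The remaining outer ring genes fell by less or were more uneven between libraries. Nup37, a small peripheral subunit of the Y, had 25.6 and 20.3 CPM in the wildtype and 11.4 and 13.4 CPM in the mutant, a log2 fold change of -0.87 (SE 0.17, adjusted p = 0.00506). After thinning the libraries to 1 total its call was lost, at -0.71 (adjusted p = 0.052). Nup75, the fly counterpart of Nup85 in the short arm, had 66.7 and 49.1 against 35.5 and 36.2 CPM, a log2 fold change of -0.68 (SE 0.17, adjusted p = 0.0153). In Nup75 the wildtype libraries were further apart than the mutant ones, and without wildtype replicate 1 its value was -0.46 with the call lost (adjusted p = 0.0591). Elys, which binds chromatin and starts pore assembly there, had 81.9 and 80.5 CPM in the wildtype and 49.6 and 55.7 CPM in the mutant, a log2 fold change of -0.63 (SE 0.13, adjusted p = 0.00871). Its call was lost without mutant replicate 1, at -0.57 (adjusted p = 0.0522), and after thinning, at -0.46 (adjusted p = 0.0594).

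The smallest fall that passed in the outer ring was that of Nup43, another peripheral subunit. Nup43 had 25.3 and 23.3 CPM in the wildtype and 17.7 and 16.6 CPM in the mutant, a log2 fold change of -0.49 (SE 0.13, adjusted p = 0.0219). The groups did not overlap, but the call was lost without wildtype replicate 1 (-0.44, adjusted p = 0.0751), mutant replicate 1 (-0.56, adjusted p = 0.0537) or mutant replicate 2 (-0.44, adjusted p = 0.124). DESeq2 did not call it either (-0.52, adjusted p = 0.172).

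The inner ring, which lines the pore at the membrane and holds the channel in place, had the lowest median of the parts with more than 1 gene, at -1.10. Its 6 genes summed to 521 and 452 CPM in the wildtype and to 229 and 220 CPM in the mutant libraries. Nup154, the fly Nup155, had the largest fall of all 27 members. Mutants of Nup154 are known for defects of egg chambers and of sperm. Its counted transcript of 13 exons lies on chromosome 2L at 11004820 to 11010180, and it had 123 and 103 CPM in the wildtype against 38.6 and 35.7 CPM in the mutant. The log2 fold change was -1.60 (SE 0.15, adjusted p = 0.00029), and 4.93% of all genes tested had a lower one. Exons of Art8, on the opposite strand, cover 6.55% of this transcript, and Art8 went the other way, from a mean of 28.0 to 47.2 CPM (log2 fold change 0.75, SE 0.14, adjusted p = 0.00422).

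Nup35, the fly Nup53, which binds the membrane and ties the inner ring together, had 35.95 and 34.7 CPM in the wildtype and 15.8 and 13.5 CPM in the mutant. It fell by 1.26 on the log2 scale (SE 0.14, adjusted p = 0.000535), with the mutant libraries further apart than the wildtype ones. The large ring proteins Nup205 and Nup188, which are related to each other, moved by similar amounts. Nup205 had 193 and 160 against 93.1 and 89.2 CPM, a log2 fold change of -0.95 (SE 0.16, adjusted p = 0.00283). Nup188 had 73.5 and 78.1 against 41.2 and 40.9 CPM, a log2 fold change of -0.89 (SE 0.13, adjusted p = 0.00163).

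Nup93 links the inner ring to the channel, and the fly has 2 genes for it. Nup93-1, on chromosome X at 13822826 to 13825910, had 61.5 and 52.6 CPM in the wildtype and 27.5 and 29.2 CPM in the mutant, a log2 fold change of -1.01 (SE 0.14, adjusted p = 0.00138). Nup93-2, on chromosome 3R at 14895703 to 14898372, had 34.3 and 24.2 against 13.2 and 11.5 CPM, a log2 fold change of -1.20 (SE 0.19, adjusted p = 0.00231). Both copies were lower in both mutant libraries, and their 95% intervals, -1.33 to -0.68 and -1.64 to -0.76, overlapped. Whether the copies share reads was not resolved by the counting.

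Nup93-2 is a near neighbour of the mutated gene. A gap of 2059 nucleotides separates its counted transcript from that of RpS5b, which lies at 14900432 to 14901563 on the same strand. Between them lie CG3817 and VhaPPA1-2. CG3817 rose from 4.21 and 5.17 CPM to 12.2 and 9.99 CPM, or by 1.22 on the log2 scale (SE 0.24, adjusted p = 0.00636). VhaPPA1-2, 154 nucleotides from RpS5b, held 0 counts in both wildtype libraries and 2 and 1 in the mutant ones, and did not pass the filter on low counts. On the other side of RpS5b, VhaPPA1-1 was at -0.47 (SE 0.13, adjusted p = 0.0219). Exons of CG14860 on the opposite strand cover 27.6% of the Nup93-2 transcript, but it held only 8 to 19 counts. Any part of the RpS5b lesion in these neighbours' values was not tested.

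The membrane anchor Ndc1, which spans the nuclear envelope and holds the inner ring to it, moved with the scaffold. Its level was 32.7 and 33.8 CPM in the wildtype and 16.9 and 17.9 CPM in the mutant, a log2 fold change of -0.94 (SE 0.13, adjusted p = 0.00122). The libraries of each genotype nearly coincided.

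The central channel holds a trimer of Nup62, Nup58 and Nup54, whose repeats bind transport receptors. Nup58 had 34.3 and 34.5 CPM in the wildtype and 19.1 and 19.7 CPM in the mutant, a log2 fold change of -0.83 (SE 0.12, adjusted p = 0.00198). Its partners did not pass. Nup62 had 25.6 and 20.5 against 19.1 and 15.5 CPM, a log2 fold change of -0.38 (95% interval -0.78 to 0.012, adjusted p = 0.108). Nup54 had 33.0 and 26.6 against 20.9 and 24.5 CPM, a log2 fold change of -0.38 (95% interval -0.75 to -0.011, adjusted p = 0.0908). For both, the lower wildtype library lay just above the higher mutant library. The interval of Nup58, -1.12 to -0.53, overlapped those of its partners, and differences between the trimer's genes were not tested. Both partners were called with protein-coding genes alone (Nup54 at adjusted p = 0.0315, Nup62 at adjusted p = 0.0465). Without wildtype replicate 1 both were at -0.24 (Nup54 at adjusted p = 0.314, Nup62 at adjusted p = 0.369), and without mutant replicate 2 Nup62 was at -0.25 (adjusted p = 0.417).

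On the cytoplasmic face, filaments receive cargo and strip export factors from RNA. Nup358, the fly RanBP2, is their main filament protein and a building block of annulate lamellae in the oocyte. It held by far the most footprints of any member before scaling for length, with 506 and 480 CPM in the wildtype and 277 and 310 CPM in the mutant. It took between 21.0% and 22.7% of all nucleoporin counts in each library. It was counted on chromosome 3R at 25249348 to 25258672, next to Nup37 at 25247871 to 25249100. The log2 fold change was -0.75 (SE 0.17, adjusted p = 0.00987), and without mutant replicate 1 it was -0.69 with the call lost (adjusted p = 0.0798).

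Nup214, to which the export helicase docks, had 116 and 94.1 CPM in the wildtype and 67.2 and 67.6 CPM in the mutant, a log2 fold change of -0.64 (SE 0.15, adjusted p = 0.0131). Its call was lost without wildtype replicate 1, at -0.48 (adjusted p = 0.0604). Gle1, which activates the export helicase at the pore and is a gene of 1 exon on chromosome 2R at 8627900 to 8630186, fell further. It had 25.6 and 28.8 against 10.9 and 11.6 CPM, a log2 fold change of -1.29 (SE 0.14, adjusted p = 0.000463). The intervals of Gle1, -1.60 to -0.97, and of Nup214, -0.99 to -0.28, overlapped only at their ends, and the difference between these genes was not tested.

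The calls of Nup358, Nup214, Elys, Nup44A and Nup43 were also lost when libraries were scaled by total counts alone, where the log2 fold changes ran from -0.69 to -0.43. Under that scaling 16 members fell, against 21, and 25 of 27 were still below 0. Of all genes tested, 17.5% were lower there.

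None of the 3 basket genes passed the test. Megator (Mgtor), the coiled-coil protein that builds the basket filaments, had 143 and 148 CPM in the wildtype and 120 and 118 CPM in the mutant. Its log2 fold change was -0.28 (95% interval -0.61 to 0.038, adjusted p = 0.138). Nup153, which anchors the basket to the pore, had 135 and 118 against 109 and 116 CPM, a log2 fold change of -0.16 (95% interval -0.51 to 0.18, adjusted p = 0.406). The groups were separate for both genes but nearly touched for Nup153, whose value was -0.068 without wildtype replicate 1 and -0.28 without wildtype replicate 2.

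Nup50, a mobile basket protein that helps release importin cargo, was the basket gene with higher values in the mutant. It had 41.5 and 40.05 CPM in the wildtype and 48.9 and 50.5 CPM in the mutant, a log2 fold change of 0.29 (95% interval -0.0076 to 0.58, adjusted p = 0.106). Exons of coil on the opposite strand cover 4.09% of its transcript. Its lower bound lay above the upper bounds of the 6 inner ring genes, the highest of which was -0.59 for Nup205, and the difference itself was not tested.

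**Figure D2:**
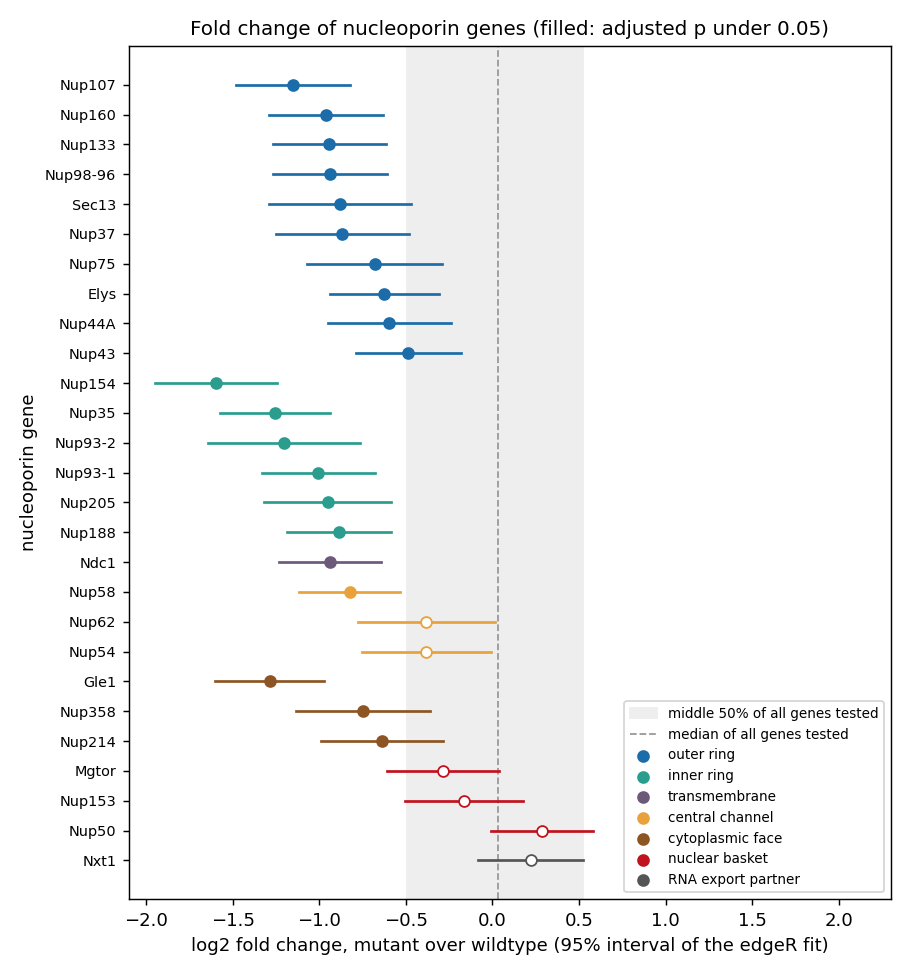
The log2 fold change of each nucleoporin gene, mutant over wildtype, with its 95% interval from the edgeR fit, coloured by place in the pore. Filled points passed at an adjusted p under 0.05, the grey band holds the middle 50% of all genes tested, and the dashed line is their median. Scaffold genes lie left of the band's centre, from -1.60 for Nup154 to -0.49 for Nup43. The 3 basket genes and Nxt1 lie inside the band, as do Nup54, Nup62 and, at its edge, Nup43.

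Relative to the rings, the summed level of the basket was higher in the mutant. Summed over its 3 genes, it stood at 319 and 305 CPM in the wildtype and at 278 and 285 CPM in the mutant. Divided by the outer ring's sum, this gave ratios of 0.447 and 0.490 for wildtype ovaries, against 0.761 and 0.754 for mutant ones. Against the inner ring the ratio went from 0.612 and 0.675 to 1.21 and 1.30. The ratio of the cytoplasmic face to the outer ring was 0.906 and 0.968 for wildtype ovaries and 0.973 and 1.03 for mutant ones, and Nup358 made up most of that face's sum. These ratios do not depend on how the libraries were scaled. Both mutant libraries were higher in each of the 3 ratios. For the cytoplasmic face the groups nearly touched, at 0.968 and 0.973, less than the spread within each group. The outer ring's sum enters more than 1 of the ratios. Over single genes, 71.8% of all genes tested did not overlap either. The ratios are given with no test, because the genes were grouped with earlier results of these data known.

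**Figure D3:**
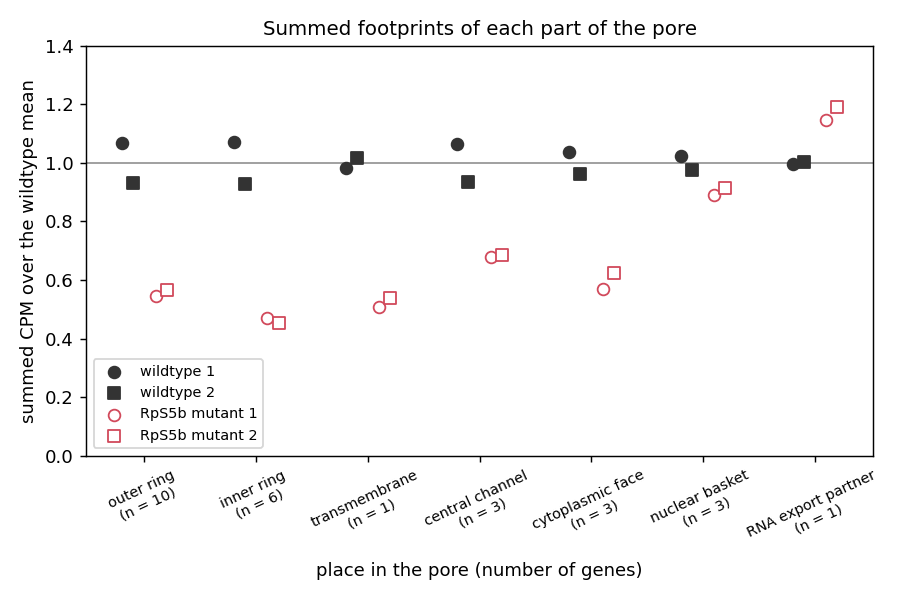
Summed CPM of the genes of each part of the pore in each library, divided by the mean of the wildtype libraries, with the number of genes under each name. Inner ring sums in the mutant lie below 0.5, those of the outer ring and cytoplasmic face near 0.6, those of the basket near 0.9, and Nxt1 above 1.

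Nxt1, the small partner of the mRNA export receptor Nxf1, is not a fixed part of the pore. It had 15.5 and 15.7 CPM in the wildtype and 17.9 and 18.6 CPM in the mutant, a log2 fold change of 0.22 (95% interval -0.083 to 0.53, adjusted p = 0.213). Its transcript is the shortest of the set at 540 nucleotides, and its counts of 48 and 85 in the wildtype were the lowest. Exons of CG5543 on the opposite strand cover 14.4% of it. After thinning the libraries to 1 total, its value turned to -0.096 (adjusted p = 0.753).

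Levels of different genes can be compared only per length, here as CPM per kilobase of the counted transcript, untranslated regions included. In the wildtype, members spanned 11.7 to 57.6 CPM per kilobase with a median of 20.04, and in the mutant 4.92 to 34.3 with a median of 11.9. Nup358 ranked first in both genotypes, at 57.6 ± 2.17 CPM per kilobase in the wildtype (SD, n = 2) and 32.4 and 36.3 in the mutant libraries. Nup44A at 36.9 ± 0.536 and Sec13 at 35.7 ± 7.79 (SD, n = 2 each) followed in the wildtype and did not differ beyond their spread. The 2 transcripts of Sec13, of 1343 and 1809 nucleotides, held the same counts, and the shorter was used. The level of Sec13 per kilobase, and its place in the order, depend on that choice. Below Nup44A and Sec13, as counted here, Nxt1 at 28.9, Nup35 at 28.3, Nup205 at 27.3 and Nup75 at 27.0 CPM per kilobase formed a group. Its neighbours were likewise within their spread. At the low end, Nup93-2 at 11.7 ± 2.88, Gle1 at 11.9 ± 0.99 and Elys at 12.5 ± 0.161 (SD, n = 2 each) could not be ordered.

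The order of the levels changed for some members. Nup154 went from rank 8 in the wildtype to 24 in the mutant, and its share of the summed per-kilobase level went from 4.02% to 2.13%. Nup50 went from rank 11 to 3, with a share of 3.53% and then 6.89%, Nup153 from 22 to 10, and Mgtor from 17 to 7. The levels of Nup153 (15.8 to 14.1 CPM per kilobase) and Mgtor (19.6 to 16.1) were themselves lower in the mutant, so their ranks rose as other members fell further. Nup205 was also at 14.1 in the mutant, so close ranks there could not be ordered. Gle1 and Nup93-2, at the low end in both genotypes, exchanged ranks 26 and 27. In the mutant Nxt1, at 33.1 and 34.4 CPM per kilobase, lay level with Nup358. Across the 27 genes, levels in the wildtype and the mutant had a Spearman rho of 0.705, which is across genes that share libraries and is a description.

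**Figure D4:**
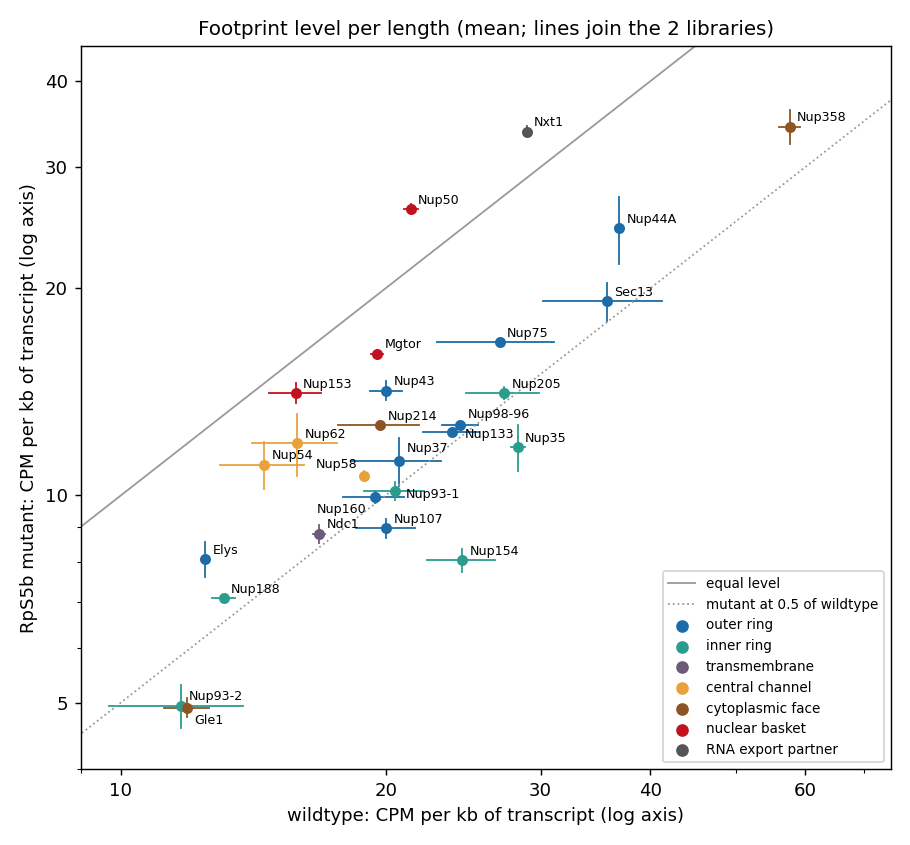
Level of each nucleoporin gene in CPM per kilobase of transcript, wildtype on the horizontal and RpS5b mutant on the vertical log axis, with points at the means and lines joining the 2 libraries of a group. Most genes lie near the dotted line, where the mutant is at 0.5 of the wildtype, and Nxt1 and Nup50 lie above the line of equal level.

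Length and level showed little relation to the size of the difference. Across members, Pearson's r of the log2 fold change was -0.028 with transcript length and -0.156 with the log2 wildtype CPM, both as descriptions over 27 genes of the same libraries. Isoforms of a member gave nearly the same ratio. The 13 members with 1 annotated transcript left no choice, and for the other members the log2 ratio over isoforms differed most for Nup98-96, between -0.98 and -0.94. By chromosome, all 9 members on 3R and all 3 on 2L fell, as did 4 of 5 on X and 5 of 10 on 2R. Of all genes tested, 23.2% on 3R, 18.45% on 2L, 21.7% on X and 21.05% on 2R were lower.

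A further 4 pore genes lie outside the naming rule. Of mbo, Rae1, Aladin and Gp210, 3 fell and 0 rose, beside 20.9% lower and 20.4% higher over all genes tested. The gene mbo, which encodes the Nup88 partner of Nup214, was at -0.79 (SE 0.14, adjusted p = 0.00323), Rae1, an mRNA export factor at Nup98, at -0.66 (SE 0.16, adjusted p = 0.0152), and Aladin at -0.56 (SE 0.13, adjusted p = 0.011). Gp210, a membrane protein of the pore, was at -0.18 and did not pass (adjusted p = 0.335). The call of Aladin was lost without wildtype replicate 2 (-0.51, adjusted p = 0.0508), by DESeq2 (adjusted p = 0.0589) and under scaling by total counts (adjusted p = 0.075). The call of Rae1 was lost after thinning (-0.51, adjusted p = 0.0888).

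Genes of the traffic through the pore moved in both directions. Of 34 genes in the lists of transport receptors, Ran cycle and mRNA export, 10 fell, 5 rose and 19 did not pass, with a median log2 fold change of -0.075. The share that fell, 10 of 34, can be set beside the 20.9% of all genes that were lower, and the share that rose, 5 of 34, beside the 20.4% that were higher. With a library left out, fewer of these genes passed as higher, and so did fewer of all genes tested.

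Among the 22 genes of receptors and the Ran cycle, 7 fell and 4 rose, where 20.9% of all genes tested were lower and 20.4% higher. The falls were led by importin genes of the classical route and their recycling factor. Cse1, the exporter that returns importin alpha to the cytoplasm, had means of 296 CPM (wildtype) and 54.8 CPM (mutant), a difference of -2.43 on the log2 scale (SE 0.17, adjusted p = 9.1e-05). Fs(2)Ket, the importin beta of the fly, had means of 429 and 127 CPM, or -1.76 (SE 0.18, adjusted p = 0.000426), and Pen, importin alpha 2, had means of 770 and 290.5 CPM, or -1.41 (SE 0.18, adjusted p = 0.0011). The other importin alpha genes rose, Kap-alpha1 at 0.83 (SE 0.13, adjusted p = 0.00236) and Kap-alpha3 at 0.59 (SE 0.15, adjusted p = 0.0202), as did the importin Karybeta3 at 0.66 (SE 0.18, adjusted p = 0.0209). The call of Kap-alpha3 was lost without any 1 of the 4 libraries (0.55 to 0.61), and that of Karybeta3 without wildtype replicate 2 (0.50) or mutant replicate 1 (0.59). Ran, the small GTPase that sets the direction of transport, was at 0.22, and msk at 0.38, and neither passed.

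Among 12 mRNA export genes, 3 fell, 1 rose and 8 did not pass. The share that fell is near the 20.9% of all genes tested that were lower, and 20.4% were higher. The THO complex gene tho2 was at -0.82 (SE 0.13, adjusted p = 0.00238), xmas, a subunit of the TREX-2 complex at the basket, at -0.90 (SE 0.17, adjusted p = 0.00474), and PCID2, of the same complex, at -0.53 (SE 0.14, adjusted p = 0.0226). The call of PCID2 was lost without wildtype replicate 1 (-0.42) or mutant replicate 1 (-0.48), by DESeq2 (adjusted p = 0.133) and under scaling by total counts (adjusted p = 0.0819). The call of xmas was lost after thinning (-0.69, adjusted p = 0.051). Ref1, the fly Aly adaptor, rose by 0.74 on the log2 scale (SE 0.14, adjusted p = 0.00417), and the helicase genes Hel25E at 0.33 and Dbp80 at 0.19 did not pass.

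Of 9 genes of the nuclear envelope, 3 fell and 1 rose, beside 20.9% lower and 20.4% higher over all genes tested. Ote, a LEM-domain protein needed in germline stem cells, had means of 94.4 CPM in the wildtype and 14.1 CPM in the mutant and fell by 2.74 on the log2 scale (SE 0.14, adjusted p = 2.97e-05). The B-type lamin gene Lam was at -0.998 (SE 0.14, adjusted p = 0.00128) and MAN1 at -1.06 (SE 0.20, adjusted p = 0.00479, call lost without wildtype replicate 2 at -0.80). Msp300, a large nesprin that links nuclei to actin, rose by 1.44 on the log2 scale (SE 0.14, adjusted p = 0.000359). The A-type lamin gene LamC at -0.16 and klar at 0.079 did not pass.

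**Figure D5:**
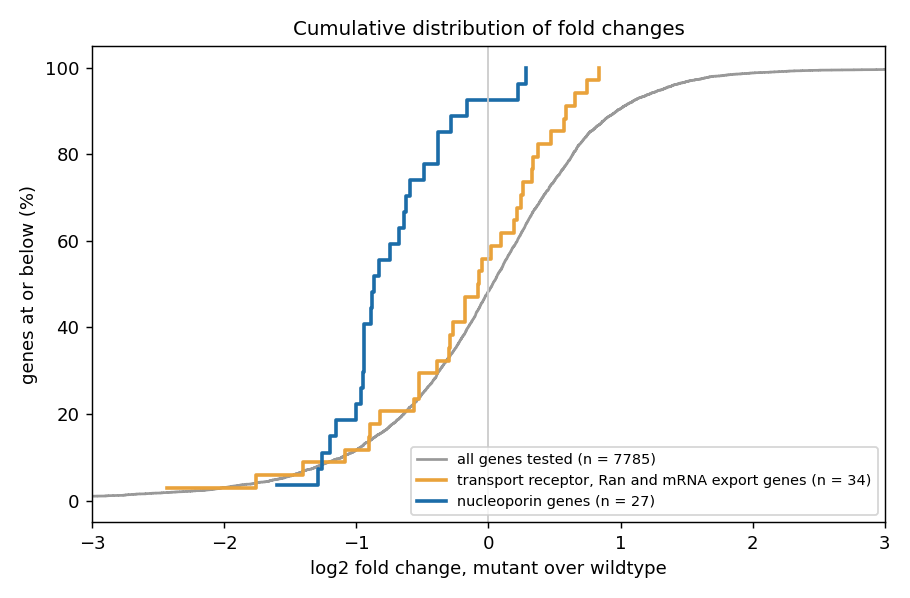
Cumulative distribution of the log2 fold change, mutant over wildtype, for the 27 nucleoporin genes, the 34 genes of transport receptors, the Ran cycle and mRNA export, and all 7785 genes tested, shown from -3 to 3. Above about -1.2 the nucleoporin curve lies left of the others, with a median of -0.87, and the transport curve, with a median of -0.075, runs close to that of all genes.

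Markers of cell types and stages moved in the same libraries. Over all genes tested, 20.9% were lower and 20.4% higher. All 9 chorion genes, which follicle cells express late in egg chamber growth, fell, and their summed level was 7097 and 4801 CPM in the wildtype and 1601 and 1124 CPM in the mutant. The sums were thus higher in the wildtype, from which alone egg chambers of stages 10 to 14 were removed. Any part of the removal in these values was not tested. Of 6 follicle cell markers 5 rose, from sums of 158 and 144 CPM to 292 and 283 CPM. Of 6 germline markers, 2 fell and 4 did not pass, with sums of 443 and 380 CPM in the wildtype and 320 and 358 CPM in the mutant. The germline marker vas was at 0.0087 and osk at -1.98 (SE 0.19, adjusted p = 0.00033). Their part in the nucleoporin values was not tested.

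Markers of other tissues were present at differing levels. Summed muscle markers were between 87.7 and 130.2 CPM with no call among 5 genes, and summed blood cell and nerve markers lay between 1.66 and 5.51 CPM in each library. Of 4 fat body markers, Fbp1 and Fbp2 were at 0 in every library, and apolpp, at 18.8 CPM in the wildtype and 41.5 CPM in the mutant, rose.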

How the data were processed

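The authors deposited 1 table per library. A deposited count gives, per the file headers, how many reads of 25 to 100 nt fell in a whole transcript when placed 12 nt from their 5′ end, without any mask. The deposited RPKM and coverage signal columns are the same counts per length, and were not tested. The submitters' processing notes name build BDGP6, TopHat2 2.1.2, Bowtie 1.0.0, and also DESeq2, bedtools 2.26.0 and SAMtools 0.1.19. Their roles, and whether counting used strand, are not given in the sources used here.

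Transcripts were tied to RefSeq Release 6 genes by coordinates (shared ends, at least 80% overlap both ways, shared splice junctions, or lying inside 1 gene), which named 34646 of 34729. The others held at most 0.0124% of a library's counts and were left out. The transcript with the highest mean count stands for its gene, and the shortest of these where counts were equal. Members of near-identical or overlapping genes can share reads, and exons of other genes overlap 10 of the 27.

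Genes were filtered with filterByExpr, scaled by TMM, and tested with edgeR 4.0.16 (R 4.3.3) by the quasi-likelihood test with genotype as the only term and Benjamini-Hochberg adjustment over all genes. Standard errors are the log2 fold change over the square root of F, and intervals are 95%. The functions were tested on simulated data. For a single gene in 2 against 2 libraries, exact permutation reaches no p below 0.333, so calls rest on the spread shared between genes. Footprints have no molecular identifiers. In all, 13 alternatives were run, DESeq2 1.42.0 among them.

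The members, lists and the rule for naming genes (all members, and from each other list up to 3 per direction by p and 2 that did not pass by level) were chosen with earlier results of these data known. Planned protein and promoter descriptions were not made, since no sequence was used here. The pairing check gave a correlation of 0.246, taken over the genes tested, between the replicate differences of the genotypes, with 2 libraries per genotype.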

Additional observations from a re-analysis of the deposited data

How the results depend on the processing

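The nucleoporin result kept its direction in each of the 13 alternatives: the members' median lay between -0.91 and -0.72, at least 25 members were below 0, and between 16 and 23 fell. The 16 came from scaling by total counts, where 17.5% of all genes tested were lower. The 23 came from protein-coding genes alone, where 25.6% were lower. Of the 21 that fell, 14 were called in every alternative and 7 lost the call in at least 1. Leaving out 1 library, fewer members and fewer of all genes tested passed as lower. The members' median then ran from -0.91 to -0.72, and that of all genes tested from 0.0041 to 0.043. Thinning the libraries to 1 total, which removes counts by construction, left 18 members lower, beside 17.8% of all genes tested. There Nxt1 turned to -0.096. With 1 library left out Dbp80 lay between -0.051, without mutant replicate 2, and 0.38. Neither had passed, and the cause was not tested.

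Replicate numbers are shared between the genotypes, but nothing in the labels pairs them. With the replicate block, 22 members fell and 1, Nup50, rose (adjusted p = 0.0477). Of all genes tested, 24.5% (1910) were lower there and 24.9% (1940) higher. Of the 34 transport genes, 8 rose, against 5 with genotype as the only term, where 20.4% of all genes were higher. DESeq2 called 844 genes (10.8%) higher and 1133 (14.6%) lower, against 1591 and 1625 by edgeR, both over 7785 genes. With 1 library left out, between 1036 and 1411 genes were higher and 1212 to 1531 lower, and 2 to 4 transport genes rose while 7 to 10 fell.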
